A study of Mus musculus with 24 samples.

Results

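The bulk RNA-seq libraries compared here are the 4 from sorted multipotent progenitor 3 (MPP3) cells and the 4 from sorted hematopoietic stem cells (HSCs) of young wild-type mice, called Y-WT MPP3 and Y-WT HSC. They were chosen by the cell type, age and genotype in the sample titles and are 8 of the 24 libraries of a study of tristetraprolin (TTP), an RNA-binding protein that speeds the decay of inflammatory messenger RNAs. The wild-type mice were untreated young adult males, littermates of mice homozygous for TTPdeltaARE, an allele that removes the AU-rich element of the Zfp36 message and so stabilizes the TTP transcript. Bone marrow cells were sorted as lineage-negative, Sca-1+, c-Kit+ (LSK) cells, HSCs being CD34-, Flk2- and CD150+ and MPP3s being Flk2-, CD150- and CD48+. The 4 Y-TTPdeltaARE MPP3 and 4 Y-TTPdeltaARE HSC libraries, and 5 HSC libraries from middle-aged wild-type mice (M-WT HSC), served as further comparisons. No source used here says whether replicates were separate mice, so p-values measure the spread between libraries, part of which may be technical. All Y-WT HSC libraries carry library numbers 11 to 14 and all Y-WT MPP3 libraries 21 to 24, so cell type and library set cannot be told apart.

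HSCs are rare, mostly quiescent cells that sustain all blood lineages for life. MPP3s lie downstream of them, divide often, and are known as the multipotent progenitors that give rise mainly to granulocytes and monocytes, while retaining access to other fates. The genes that make primary granules, the cell division genes and the surface receptors for myeloid cytokines are textbook features of the step from stem cell to myeloid-primed progenitor, and Mpo, Elane and Ctsg encode the proteins that fill those granules.

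The sequence before the RefSeq start site of each of those 3 granule genes is shown because their transcripts had the largest fold changes of the primary granule list. The 250 bases before the RefSeq transcription start site (GRCm38.p6) are given 5′ to 3′ on the gene's strand, at chr11:87793534-87793783 on the plus strand for Mpo, chr10:79886062-79886311 on the plus strand for Elane and chr14:56102575-56102824 on the minus strand for Ctsg. The GENCODE annotation, whose gene positions are given below, starts Mpo and Elane inside these windows, so part of each lies within the gene by that annotation. Distances are to the RefSeq start site. Capitals mark GAGGAA, the PU.1-type core, GGAAGT, the ETS-type core, which can overlap it, TGTGGT, the RUNX-type core, and TTGCNNAA, the C/EBP-type core, on either strand.
Mpo: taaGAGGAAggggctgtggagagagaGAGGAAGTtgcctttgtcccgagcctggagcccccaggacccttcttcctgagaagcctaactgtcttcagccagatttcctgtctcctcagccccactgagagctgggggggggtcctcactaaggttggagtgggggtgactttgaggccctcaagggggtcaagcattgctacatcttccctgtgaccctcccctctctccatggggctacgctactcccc
Elane: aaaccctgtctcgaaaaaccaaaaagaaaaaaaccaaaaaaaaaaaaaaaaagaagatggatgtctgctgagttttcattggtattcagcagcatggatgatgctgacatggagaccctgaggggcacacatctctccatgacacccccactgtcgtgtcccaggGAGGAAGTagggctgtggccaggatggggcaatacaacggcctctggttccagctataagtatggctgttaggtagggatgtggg
Ctsg: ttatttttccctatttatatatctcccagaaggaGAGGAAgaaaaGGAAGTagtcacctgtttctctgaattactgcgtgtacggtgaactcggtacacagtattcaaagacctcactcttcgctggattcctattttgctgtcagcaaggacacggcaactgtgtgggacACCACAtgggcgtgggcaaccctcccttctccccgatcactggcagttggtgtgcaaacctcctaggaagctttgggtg

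All 3 sequences held GAGGAA and GGAAGT. In Elane the motifs lay 78 to 85 bases before the start site and overlapped, and in Ctsg a TGTGGT was read on the opposite strand 74 to 79 bases before it. Of the 14 primary granule genes with a promoter entry, 7 (50%) held GAGGAA in this window, beside 25.9% of all 27025 promoters, 9 (64.3%) held GGAAGT beside 22.2%, 7 (50%) held TGTGGT beside 15.9%, and 2 (14.3%) held TTGCNNAA beside 10.8%. Among genes over the expression limit given below, the shares of these motifs, in the same order, were 26.0%, 27.4%, 13.1% and 9.06%. Of 18 promoters of megakaryocyte genes, a list mostly lower in MPP3s, 61.1% held GAGGAA, 38.9% GGAAGT, 5.56% TGTGGT and 11.1% TTGCNNAA. All of these are matches of letters and not binding sites.

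Mpo (myeloperoxidase; GRCm38 chr11:87793581-87804413, plus strand) measured 1.097, 5.58, 5.38 and 2.38 CPM (counts scaled to a common library size by TMM factors) in Y-WT HSC replicates 1 to 4 and 255, 759, 1127 and 483 CPM in Y-WT MPP3 replicates 1 to 4. Every MPP3 library lay far above every HSC library, and the fitted difference was 183-fold (log2 fold change 7.52, SE 0.70, adjusted p = 0.000101, edgeR quasi-likelihood test with Benjamini-Hochberg adjustment). Elane (neutrophil elastase; chr10:79886247-79888215, plus strand) measured 0.519, 1.67, 0.527 and 0.328 CPM in HSCs and 14.9, 17.1, 36.7 and 20.6 CPM in MPP3s, 29.5-fold higher in MPP3s (log2 fold change 4.88, SE 0.51, adjusted p = 0.000197). Ctsg (cathepsin G; chr14:56099881-56102574, minus strand) measured 0.115, 0.136, 0.602 and 0.476 CPM in HSCs, only 40 counts in all, and 10.4, 37.9, 69.6 and 14.9 CPM in MPP3s, 4292 counts in all (log2 fold change 6.66, SE 0.79, adjusted p = 0.000366). Neither group overlapped the other for these genes, and within MPP3s replicate 3 was highest in each of them. Ctsg was not called by limma-voom.

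**Figure D1:**
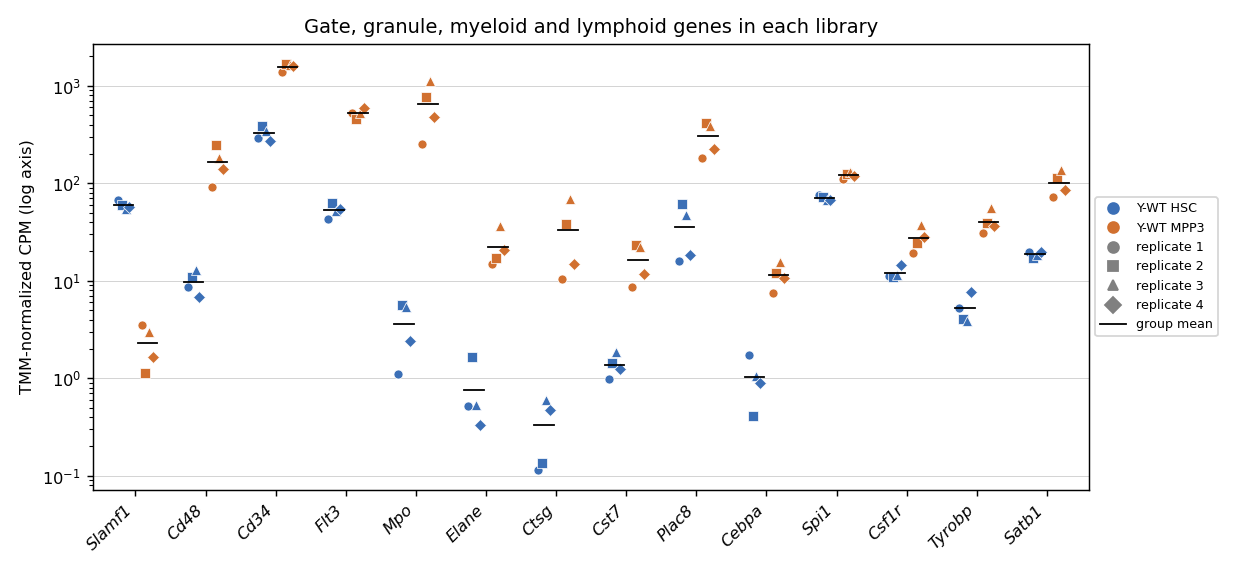
TMM-scaled CPM on a log axis of sort gate, granule, myeloid and lymphoid genes (horizontal axis) in the 4 Y-WT HSC and the 4 Y-WT MPP3 libraries, each point 1 library, each marker shape 1 replicate number and each bar the group mean. Mpo, Elane and Ctsg are higher in all MPP3 libraries than in any HSC library, and Slamf1 runs the other way.

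Across the transcriptome, 22816 genes passed the count filter and 13433 of them had an average log2 CPM over 1.5. Of those 13433, 3314 were called higher in Y-WT MPP3s (24.7%) and 1755 lower (13.1%), at an adjusted p under 0.05 and a fold change over 1.2. Lower calls were the larger in size: 380 genes were lower by more than 4-fold against 180 higher, and 195 lower by more than 8-fold against 33 higher. The split between directions depends on the scaling. Higher genes made up 65.4% of the calls with TMM factors, 60.1% with RLE factors (3216 higher, 2137 lower), 41% with upper quartile factors (2048 higher, 2950 lower) and 34.3% with library totals (1705 higher, 3262 lower), as the median log2 fold change of all genes moved from 0.12 to 0.075, -0.055 and -0.094. The counts for each list of genes are therefore given below also with library totals wherever that scaling changes them. Every list median is to be read against 0.12. List counts with TMM factors are to be read against 24.7% of all genes higher and 13.1% lower.

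**Figure D2:**
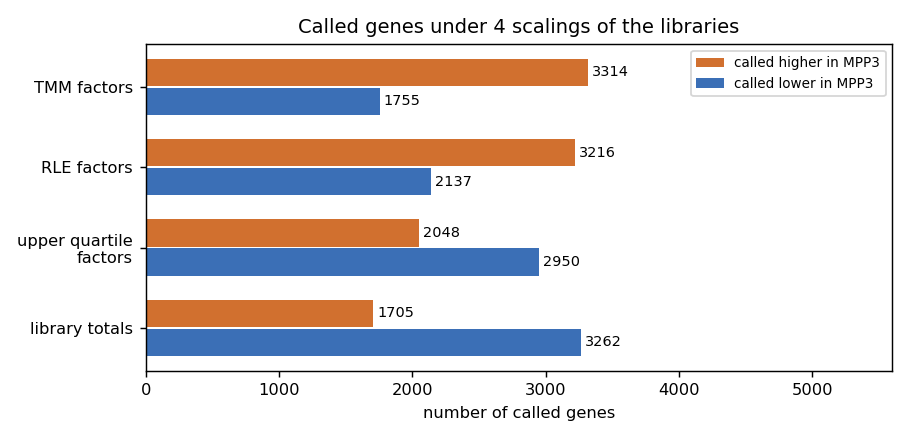
Numbers of genes called higher and lower in Y-WT MPP3s (horizontal axis, genes) under 4 ways of scaling the libraries (vertical axis). Higher calls outnumber lower ones with TMM and RLE factors, 3314 to 1755 and 3216 to 2137, and the order turns with upper quartile factors and library totals.

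Libraries held 24261371 to 36850425 counts in Y-WT HSCs and 32341955 to 38620397 in Y-WT MPP3s. The first principal component of the 13433 genes carried 64.5% of the variance and placed HSCs between -62.59 and -49.5 and MPP3s between 32.08 and 73.64. Several libraries stood apart within their group. HSC replicates 1 and 4 held 1391 and 1539 summed CPM of a list of endothelial and stromal genes against 595 and 586 in replicates 2 and 3 and 303 to 388 in MPP3s. HSC replicates 2 to 4 held 670 to 1091 CPM over the genes of olfactory and vomeronasal receptors, not known from blood, against 63.55 in replicate 1 and 18.8 to 312 in MPP3s. Immunoglobulin and T-cell receptor segment genes took 7.70% of the counts in HSC replicate 3 and 9.42% in MPP3 replicate 1 and at most 2.36% in the other 6 libraries. With HSC replicates 1 and 4 left out, 3254 genes were higher and 792 lower. With HSC replicates 2 and 3 left out, 1623 were higher and 1470 lower. With HSC replicate 1 alone left out, 5091 genes were higher.

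The genes of the sort gates ran with the sample titles, which is a check of the titles and not a result. The source name label reads HSC for the MPP3 libraries too. Slamf1, which encodes CD150 (chr1:171767127-171801184, plus strand), measured 66.8, 59.3, 54.5 and 57.3 CPM in HSCs and 3.503, 1.14, 2.97 and 1.65 CPM in MPP3s (log2 fold change -4.69, SE 0.31, adjusted p = 2.55e-05). Cd48 (chr1:171682009-171705258, plus strand) measured 8.601, 10.96, 12.8 and 6.73 CPM in HSCs and 91.4, 248, 184 and 139.5 CPM in MPP3s (log2 fold change 4.09, SE 0.33, adjusted p = 5.76e-05). Cd34 was 4.84-fold higher in MPP3s (2.27, adjusted p = 1.25e-05). Kit (0.17, adjusted p = 0.155) and Ly6a, which encodes Sca-1 (-0.34, adjusted p = 0.283), the markers both gates share, were not called. Both gates are also Flk2-, but the message of that receptor, Flt3 (chr5:147330741-147400489, minus strand), measured 42.5, 62.1, 52.1 and 54.8 CPM in HSCs and 526, 457, 531 and 589.5 CPM in MPP3s. All MPP3 libraries were above all HSC libraries (log2 fold change 3.31, SE 0.14, adjusted p = 5.28e-06), in cells that the gate selects as low in the surface protein. Since the RNA is from sorted bulk samples, more cells with a transcript and more of it per cell cannot be told apart here or at any later gene.

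Among all 16 primary granule and early granulocyte genes over the level limit, 11 were higher in MPP3s and 1 was lower, with a median log2 fold change of 2.36, and with library totals 11 were higher and 3 lower. Beside the 3 above, Cst7, a cystatin that restrains granule proteases, rose from 0.981 to 1.84 to 8.67 to 23.2 CPM (3.58, adjusted p = 0.000169). Plac8 rose from 15.9 to 60.9 to 183 to 416 CPM (3.09, adjusted p = 0.0017), and Clec12a, an inhibitory C-type lectin receptor of myeloid cells, from 1.27 to 3.65 to 15.1 to 29.03 CPM (3.26, adjusted p = 0.000197). The granule program did not move as a block. Prtn3, the gene of proteinase 3, which neighbours Elane in the genome, measured 119.7, 127, 105 and 107 CPM in HSCs and 91.8, 181, 152 and 104 CPM in MPP3s, and the groups overlapped (log2 fold change 0.20, SE 0.20, adjusted p = 0.466). Lyz2, the myeloid lysozyme, measured 366 to 514 CPM in HSCs and 400 to 417 CPM in MPP3s and was not called (adjusted p = 0.572), and neither were Ctsc or Srgn. The lower member was the glutathione transferase Gstm1 (-0.70, adjusted p = 0.0125), whose call was lost without MPP3 replicate 2 (-0.64, adjusted p = 0.0612).

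Genes of secondary and tertiary granules, which neutrophils make later, showed no such rise with all Y-WT libraries in the fit. Of 8 over the level limit, 2 were higher (25%, beside 24.7% of all genes) and 1 lower (12.5%, beside 13.1%). The higher ones were Itgam (integrin alpha M, 2.03, adjusted p = 0.00193) and Anxa1 (annexin A1, 0.41, adjusted p = 0.026). The lower one was Lrg1, described below with the endothelial genes. The call of Anxa1 was lost without HSC replicate 3, MPP3 replicate 1 or MPP3 replicate 2 (adjusted p 0.06 to 0.0785) and with library totals. The calprotectin gene S100a8 measured 2.83, 5.17, 1.13 and 42.7 CPM in HSCs and 5.85, 25.8, 2.04 and 2.58 CPM in MPP3s (adjusted p = 0.74). Its partner S100a9 measured 1.62, 5.001, 2.52 and 45.4 CPM and 3.95, 27.3, 1.79 and 2.69 CPM (adjusted p = 0.702), and Ltf, lactoferrin, 1.04, 1.803, 1.66 and 21.1 CPM and 1.43, 11.3, 0.319 and 1.099 CPM. HSC replicate 4 was the highest library of its group and MPP3 replicate 2 the highest of its own in each of these, and in Camp. Without HSC replicate 4 the median of the list turned from -0.73 to 1.36.

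Of 16 myeloid transcription factor genes, 7 were higher (43.8%, beside 24.7% of all genes) and 3 lower (18.8%, beside 13.1%). Their median was 0.17, and with library totals 5 were higher and 5 lower and the median turned to -0.043. Cebpa, the master regulator of granulocyte fate (chr7:35119293-35121928, plus strand), measured 1.73, 0.408, 1.05 and 0.893 CPM in HSCs and 7.52, 12, 15.7 and 10.7 CPM in MPP3s. Its groups were well apart and it changed most among the higher members (11.1-fold; log2 fold change 3.48, SE 0.41, adjusted p = 0.00034). Spi1, which encodes PU.1, measured 75.6, 71.6, 67.1 and 66.95 CPM in HSCs and 110.5, 125, 131 and 118 CPM in MPP3s. That is a smaller step than Cebpa's with little spread (log2 fold change 0.79, SE 0.088, adjusted p = 0.000285). Cux1 rose from 196 to 215 to 315 to 395 CPM (0.77, adjusted p = 0.000315). Gfi1, a repressor needed for neutrophils, measured 43.03, 18.7, 24.6 and 31.9 CPM in HSCs and 55.7, 51.9, 57.97 and 50.6 CPM in MPP3s (0.87, adjusted p = 0.0175), and its call was lost without HSC replicate 3 (0.79, adjusted p = 0.0511). Irf8, the factor of monocytes and dendritic cells, measured 20.5, 11.7, 14.2 and 22.9 CPM and 23.1, 25.2, 60.1 and 42.3 CPM (1.119, adjusted p = 0.0329). MPP3 replicates 1 and 2 were close to HSC replicates 1 and 4 there, and the call was lost without HSC replicate 2, HSC replicate 3, MPP3 replicate 3 or MPP3 replicate 4 (adjusted p 0.0596 to 0.0856) and with library totals. Irf5 and Myb were the other higher members.

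Id2 and Ets1 were among the lower members of that list. Id2, an inhibitor of basic helix-loop-helix factors, measured 72.1, 24.9, 35.1 and 40.4 CPM and 20.1, 11.3, 18.2 and 22.7 CPM (-1.26, adjusted p = 0.0191), and its call was lost without MPP3 replicate 2 (-1.06, adjusted p = 0.0604). Ets1 was lost without HSC replicate 1 or MPP3 replicate 2 (adjusted p 0.0536 and 0.0789). With HSC replicates 1 and 4 left out, 5 factors were higher and 1 lower.

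Cytokine receptor genes moved in both directions, 13 of 33 higher (39.4%, beside 24.7% of all genes) and 10 lower (30.3%, beside 13.1%). Their median was 0.21, and with library totals 11 were higher and 12 lower with a median of -0.0065. Higher members included receptors of myeloid cytokines. Csf3r, the G-CSF receptor, measured 95.8, 118, 97.4 and 86.97 CPM in HSCs and 188, 320.4, 268 and 205 CPM in MPP3s (log2 fold change 1.30, SE 0.18, adjusted p = 0.00077). Csf1r, the M-CSF receptor, rose from 10.99 to 14.7 to 19.2 to 37.4 CPM (1.17, adjusted p = 0.00249). Il1r1, the signaling receptor of interleukin 1, rose from 15.1 to 19.7 to 63.8 to 109.5 CPM with no overlap (2.32, adjusted p = 3.92e-05). Csf2rb, the common beta chain of the GM-CSF, IL-3 and IL-5 receptors, rose by less (0.62, adjusted p = 0.0121), was not called with library totals, and shares sequence with Csf2rb2 (-1.13, adjusted p = 0.0097), which was lower, so reads of the pair are uncertain.

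Other receptors were lower. Epor, the erythropoietin receptor, fell from 11.6 to 23.98 to 1.14 to 3.85 CPM (-2.88, adjusted p = 0.00084). Osmr, the oncostatin M receptor, was lower by more (-4.28, adjusted p = 0.0133) but was lost without HSC replicate 4 (-3.84, adjusted p = 0.0609), a library high in endothelial genes. With HSC replicates 1 and 4 left out, 14 receptor genes were higher and 5 lower.

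Monocyte and macrophage genes were mostly higher: 12 of 19 (63.2%, beside 24.7% of all genes), with 1 lower (5.26%, beside 13.1%). Their median was 1.17, and with library totals 10 were higher and 1 lower. Tyrobp, the DAP12 signaling adaptor, measured 5.25, 4.05, 3.84 and 7.71 CPM in HSCs and 30.99, 38.8, 55.4 and 36.7 CPM in MPP3s (log2 fold change 2.95, SE 0.26, adjusted p = 8.03e-05). Ncf1 and Ncf4, cytosolic subunits of the phagocyte NADPH oxidase, rose from 7.86 to 11.3 to 38.2 to 77.9 CPM and from 10.7 to 15.2 to 44.5 to 57.1 CPM (2.44, adjusted p = 0.000132, and 2.01, adjusted p = 2.93e-05). Ccr2, the chemokine receptor of inflammatory monocytes, rose from 2.59 to 4.52 to 7.14 to 12.97 CPM (1.34, adjusted p = 0.00409). Ly6c2, the monocyte Ly6C antigen, measured 22.5, 5.92, 41.9 and 13.3 CPM and 311, 62.4, 238 and 27.4 CPM (2.93, adjusted p = 0.0264). Its libraries overlapped, HSC replicate 3 lying above MPP3 replicate 4, and the call was lost without HSC replicate 2, HSC replicate 4, MPP3 replicate 1 or MPP3 replicate 3 (adjusted p 0.0598 to 0.0823). Fcgr2b, the inhibitory Fc receptor, was the lower member, at 60.1, 20.7, 25.8 and 64.3 CPM in HSCs and 15.8, 17.7, 25.97 and 17.3 CPM in MPP3s (-1.16, adjusted p = 0.0431). Without HSC replicate 1 or 4, or MPP3 replicate 1, 2 or 4, it was not called (adjusted p 0.0801 to 0.121), nor by limma-voom.

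Lymphoid priming genes had 8 of 18 higher (44.4%, beside 24.7% of all genes) and none lower (beside 13.1%). Their median was 0.58, and with library totals 8 were higher and 1 lower. Dntt, the terminal transferase that adds bases at antigen receptor joints (chr19:41029275-41059525, plus strand), measured 0, 0.782, 1.35 and 1.995 CPM in HSCs and 27.6, 47.3, 95.02 and 66.97 CPM in MPP3s. That is 126 counts in 4 HSC libraries against 7798 in 4 MPP3 libraries (log2 fold change 5.85, SE 0.73, adjusted p = 0.000474). Satb1, a chromatin organizer of lymphoid cells, rose from 17.1 to 19.8 to 71.6 to 136 CPM (2.44, adjusted p = 5.14e-05). Ikzf1, which encodes Ikaros, rose from 78.7 to 88.5 to 141 to 159.9 CPM (0.88, adjusted p = 1e-04). Notch1 measured 31.8 to 52.1 CPM in HSCs and 39.7 to 74.9 CPM in MPP3s and was not called (adjusted p = 0.166). Il7r, a lymphoid progenitor marker, was under the level limit in both groups, at most 2.42 CPM.

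Cell division genes changed together. All 61 mitosis genes were higher in MPP3s, with a median log2 fold change of 2.15 and a range from 0.56 to 2.65. The groups did not overlap for any of them, while 39.8% of all 13433 genes were without overlap. All 51 S phase genes were higher, with a median of 1.27 and a range from 0.47 to 2.17, beside 24.7% of all genes. With library totals 61 and 50 of these were higher and none was lower, and the 61 mitosis genes were also called with HSC replicates 1 and 4, or 2 and 3, left out, where 51 and 47 S phase genes were called. These genes peak in S phase or in G2 and M, and the summed RNA says nothing of how many cells were in each phase.

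The promoters of 3 mitosis genes and 1 S phase gene are shown because these genes stand for both division lists in the values that follow. The 150 bases before the RefSeq start site are given for Cdk1, the kinase that drives mitotic entry (chr10:69352913-69353062, minus strand), Ccnb1, its cyclin B1 partner (chr13:100786487-100786636, minus strand), Top2a, the topoisomerase that untangles chromosomes (chr11:99024190-99024339, minus strand), and Mcm5, a subunit of the replicative helicase (chr8:75109359-75109508, plus strand). By the GENCODE annotation Cdk1 and Ccnb1 start inside their windows. Capitals mark CCAAT, the CCAAT box, TTTGAA, the cell cycle genes homology region (CHR), TTNGCGC, the E2F-type core, and TTTCGCGC, a longer form that can overlap it, on either strand.
Cdk1: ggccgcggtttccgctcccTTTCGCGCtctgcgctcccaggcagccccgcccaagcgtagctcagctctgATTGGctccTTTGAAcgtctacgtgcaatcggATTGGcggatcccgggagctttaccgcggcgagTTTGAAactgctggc
Ccnb1: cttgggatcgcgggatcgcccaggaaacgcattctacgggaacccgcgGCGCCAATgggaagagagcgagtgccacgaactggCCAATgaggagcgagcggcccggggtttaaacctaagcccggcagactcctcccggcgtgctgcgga
Top2a: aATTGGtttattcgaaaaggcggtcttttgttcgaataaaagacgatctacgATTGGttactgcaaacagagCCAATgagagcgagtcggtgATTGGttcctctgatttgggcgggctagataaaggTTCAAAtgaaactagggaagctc
Mcm5: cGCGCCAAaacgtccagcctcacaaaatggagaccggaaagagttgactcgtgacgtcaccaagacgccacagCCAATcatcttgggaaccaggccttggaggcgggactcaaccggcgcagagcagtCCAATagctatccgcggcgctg

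Cdk1 held TTTGAA at 71 to 66 and 15 to 10 bases before the start site, and Top2a held it on the opposite strand at 23 to 18. TTNGCGC lay at 130 to 124 in Cdk1, within TTTCGCGC, and on the opposite strand at 102 to 96 in Ccnb1, where it overlapped a CCAAT, and at 149 to 143 in Mcm5. Each of the 4 held CCAAT. Within 250 bases, TTTGAA was found in 18 of 51 mitosis promoters (35.3%) and 6 of 40 S phase promoters (15.0%), beside 18.3% of all promoters and 13.2% of those of genes over the level limit. TTNGCGC was in 9 of 51 (17.6%) and 8 of 40 (20%), beside 5.96% and 10.5%, and the longer TTTCGCGC in 1 of 51 (1.96%) and 5 of 40 (12.5%), beside 0.3% and 0.616%. CCAAT was in 35 of 51 (68.6%) and 25 of 40 (62.5%), beside 37.5% and 40.6%. These shares were not matched for base composition.

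Cdk1 (chr10:69335146-69352938, minus strand) measured 49.1, 40.2, 41.02 and 47.4 CPM in HSCs and 159.6, 164, 176 and 168 CPM in MPP3s (log2 fold change 1.91, SE 0.097, adjusted p = 1.19e-05). Ccnb1 measured 30.6, 23.3, 32.5 and 31.6 CPM and 111, 131, 192 and 162 CPM (log2 fold change 2.34, SE 0.18, adjusted p = 5.16e-05). Top2a (chr11:98992943-99024189, minus strand) measured 128, 107, 124 and 122 CPM and 535, 539, 638 and 747 CPM (log2 fold change 2.35, SE 0.13, adjusted p = 1.25e-05). In each of them all MPP3 libraries stood more than 3-fold above the highest HSC library. Mki67, the proliferation antigen Ki-67, rose from 40.1 to 67.8 to 254 to 372 CPM (2.49, adjusted p = 3.56e-05), Ube2c, a ubiquitin-conjugating enzyme of the anaphase-promoting complex, from 11.3 to 19.8 to 76.3 to 127 CPM (2.63, adjusted p = 8.35e-05), and Ect2, which sets the plane of cytokinesis, from 15.6 to 29.7 to 117 to 179 CPM (2.65, adjusted p = 4.87e-05).

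Mcm5 (chr8:75109569-75128439, plus strand) measured 190.5, 181, 132 and 142 CPM in HSCs and 456, 582, 401 and 494 CPM in MPP3s (log2 fold change 1.58, SE 0.15, adjusted p = 0.000135). HSC levels were at least 132 CPM, and the step was smaller than for the mitosis genes above. Mcm2, of the same helicase, rose from 164 to 240.3 to 410.4 to 606 CPM (1.27, adjusted p = 0.000434), and Pcna, the replication clamp, from 119 to 202 to 276 to 396 CPM (1.08, adjusted p = 0.00179). Rrm2, the regulated subunit of ribonucleotide reductase, rose from 41.2 to 55.5 to 201 to 239.9 CPM (2.17, adjusted p = 1.52e-05), and Uhrf1, which maintains DNA methylation at replication, from 82.7 to 103 to 296 to 402 CPM (1.91, adjusted p = 1.89e-05).

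**Figure D3:**
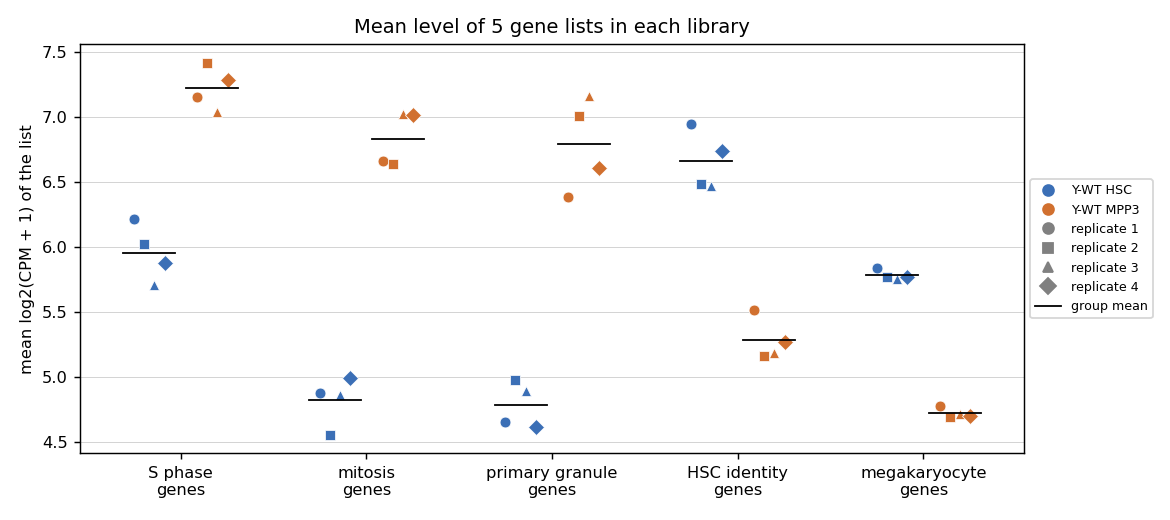
Mean log2(CPM + 1) over the genes of each list in the 4 Y-WT HSC and 4 Y-WT MPP3 libraries, each point 1 library. Mitosis and S phase means are higher in every MPP3 library than in any HSC library, and the mean of the HSC identity genes is lower in every MPP3 library.

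Regulators of the G1 phase and of quiescence split: 18 of 36 were higher (50%, beside 24.7% of all genes) and 7 lower (19.4%, beside 13.1%). Their median was 0.43, and with library totals 16 were higher and 12 lower. Cdk6, the kinase whose level sets how fast HSCs leave quiescence, measured 82.9, 177, 157 and 95.9 CPM in HSCs and 278, 539.6, 447 and 374 CPM in MPP3s (log2 fold change 1.68, SE 0.28, adjusted p = 0.00233). E2f8, E2f2 and Cdkn2c, the last an inhibitor of Cdk4 and Cdk6, rose as well (2.35, 1.77 and 1.89, adjusted p = 1.48e-05, 4.31e-05 and 0.000117). Cdkn1c, the p57 inhibitor that holds HSCs in quiescence (chr7:143458339-143461050, minus strand), measured 90.05, 46.7, 50.05 and 69.1 CPM in HSCs and 18.6, 8.16, 10.7 and 13.6 CPM in MPP3s. All MPP3 libraries were below all HSC libraries (log2 fold change -2.33, SE 0.29, adjusted p = 0.000464). The Myc paralogs went opposite ways: Myc rose from 190.4 to 276 to 371 to 446 CPM (0.76, adjusted p = 0.00212) and Mycn fell from 249.8 to 440 to 85.5 to 165 CPM (-1.32, adjusted p = 0.00344). Egr1, an immediate early factor tied to HSC quiescence, measured 53.3, 33.6, 37.7 and 20.97 CPM and 16.7, 6.27, 12.1 and 12.8 CPM (-1.61, adjusted p = 0.0066).

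Ribosome biogenesis genes were higher by small steps, 37 of 60 with a median of 0.44 and none lower, but with library totals 16 were called, and with HSC replicates 2 and 3 left out 11. Ncl, nucleolin, measured 873, 746, 654 and 673 CPM in HSCs and 1013, 1381, 1012 and 1098 CPM in MPP3s (log2 fold change 0.61, SE 0.13, adjusted p = 0.00767). Nop56, of the C/D box snoRNP, rose from 236 to 292 to 345 to 436 CPM (0.64, adjusted p = 0.00208), and Npm1 measured 368 to 581 CPM and 559 to 913 CPM and was not called (adjusted p = 0.0553), though it passed by DESeq2 (0.00862) and limma-voom (0.00847). Among TCA cycle and respiratory chain genes 22 of 70 were higher (31.4%, beside 24.7% of all genes) and none lower, with a median of 0.38, while 6 were called with library totals, 6 with HSC replicates 2 and 3 left out and 64 by limma-voom. Cycs, cytochrome c, rose from 36.8 to 53.9 to 80.7 to 124 CPM (1.04, adjusted p = 0.00266), and Ndufa4 and the mitochondrial isocitrate dehydrogenase Idh2 also rose (0.89 and 0.82, adjusted p = 0.00213 and 0.00118).

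Glycolysis genes had 7 of 32 higher (21.9%) and 8 lower (25%), with a median of 0.21 that turned to -0.013 with library totals, where 4 were higher and 11 lower. Hk3, the hexokinase of myeloid cells, measured 35.7, 30.99, 37.1 and 39.1 CPM in HSCs and 99.5, 131, 161 and 109 CPM in MPP3s (log2 fold change 1.81, SE 0.16, adjusted p = 7.49e-05). Pdk4, a kinase that keeps pyruvate out of mitochondria, fell from 3.198 to 10.01 to 0.385 to 1.67 CPM (-2.78, adjusted p = 0.00287), and the enolase gene Eno2 from 7.55 to 10.99 to 2.06 to 2.65 CPM (-2.003, adjusted p = 7.88e-05). Ldha, lactate dehydrogenase A, measured 1215, 964, 756 and 850.3 CPM in HSCs and 883, 1246, 779.8 and 888 CPM in MPP3s and was not called (adjusted p = 0.986).

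HSC identity genes were lower as a group: 33 of 38, none higher, with a median of -1.11, beside 13.1% of all genes. With library totals 36 were lower, and with HSC replicates 1 and 4 left out 24 of 37. Vwf, von Willebrand factor, which marks platelet-biased HSCs (chr6:125546774-125686679, plus strand), measured 119.9, 89.2, 97.9 and 107 CPM in HSCs and 7.52, 7.89, 9.71 and 4.92 CPM in MPP3s (log2 fold change -3.79, SE 0.20, adjusted p = 1.25e-05). The groups were more than 9-fold apart at their nearest libraries. Procr, the EPCR surface marker (chr2:155751117-155755471, plus strand), measured 224, 139, 130 and 171 CPM and 99.6, 69.1, 74.9 and 78.3 CPM (log2 fold change -1.04, SE 0.19, adjusted p = 0.00322). Mecom, which encodes EVI1 and is needed to keep HSCs, fell from 210.4 to 297 to 97.5 to 125 CPM (-1.13, adjusted p = 0.000324), Fgd5 from 61.9 to 91.5 to 27.5 to 39.8 CPM (-1.14, adjusted p = 0.000677), Hoxb5 from 9.66 to 15.9 to 1.26 to 2.36 CPM (-2.86, adjusted p = 8.8e-05) and Mllt3 from 198 to 308 to 36.6 to 59.5 CPM (-2.38, adjusted p = 4.76e-05). Sult1a1, a sulfotransferase, had the largest change of the list (log2 fold change -4.62, SE 0.38, adjusted p = 6.15e-05).

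The 5 members that were not called include transcription factors that both cell types are known to use. Hlf measured 514, 417, 452 and 459.6 CPM in HSCs and 458, 354, 378 and 479 CPM in MPP3s, and the groups overlapped (log2 fold change -0.14, SE 0.12, adjusted p = 0.388). Erg (-0.26, adjusted p = 0.0674), Bmi1 (-0.24, adjusted p = 0.22), Lyl1 (0.03, adjusted p = 0.869) and Hoxb4 (-0.50, adjusted p = 0.226) were the others, of which Erg and Bmi1 passed under 6 and 3 of 15 other settings and Hlf, above, under 2.

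Megakaryocyte genes were lower for 14 of 20, with 1 higher and a median of -1.14, and with library totals 15 lower and 1 higher. Mmrn1, multimerin 1, measured 837, 572, 639 and 753 CPM in HSCs and 244, 146, 125 and 202 CPM in MPP3s (log2 fold change -1.97, SE 0.22, adjusted p = 0.000257). Itgb3, the beta chain of the platelet fibrinogen receptor, fell from 43.7 to 67.6 to 10.2 to 16.5 CPM (-1.90, adjusted p = 0.000199), but its partner Itga2b, CD41, measured 81.01 to 132 CPM and 85.7 to 139 CPM and was not called (adjusted p = 0.872). Gata1, the erythroid and megakaryocytic master factor, measured 5.37, 18.3, 14.6 and 7.68 CPM and 1.599, 3.36, 2.3 and 4.07 CPM (log2 fold change -2.01, SE 0.43, adjusted p = 0.00771). Its HSC replicates 2 and 3 were highest, and against M-WT HSCs it was not called (-0.17, adjusted p = 0.68). Gata2 fell from 364 to 415 to 189 to 228 CPM with little spread (-0.87, adjusted p = 0.000176). Pf4, platelet factor 4, was called lower (-1.19, adjusted p = 0.0398) but lost that call without any of 7 libraries (adjusted p 0.0573 to 0.116). Plek, pleckstrin, was the member that rose, from 69.6 to 111 to 209 to 285 CPM (1.46, adjusted p = 0.000457).

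Erythroid genes had 6 of 10 lower and 1 higher, with a median of -1.36, and with library totals 9 of 12 lower and 1 higher. Aqp1, the water channel of red cells and of endothelium, measured 44.0, 21.2, 27.9 and 60.7 CPM in HSCs and 2.75 to 4.86 CPM in MPP3s (-3.39, adjusted p = 0.000164). Its HSC replicates 1 and 4 were highest, as in the endothelial genes below. Car1 (-2.55, adjusted p = 0.195) and the globin genes Hbb-bt (0.33, adjusted p = 0.423) and Hba-a1 (1.38, adjusted p = 0.197) were not called. Tfrc, the transferrin receptor, was the member that rose, from 20.9 to 26.5 to 40.7 to 53.3 CPM (1.01, adjusted p = 0.000314). Klf1 was at most 5.04 CPM in any library and under the level limit.

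Imprinted genes that restrain growth were lower in 9 of 14, none higher, with a median of -0.86 (11 with library totals, 5 with HSC replicates 1 and 4 left out). Grb10, an adaptor that dampens insulin and growth factor signals, measured 127, 114, 111 and 124 CPM in HSCs and 34.3, 24.6, 16.4 and 24.9 CPM in MPP3s (log2 fold change -2.25, SE 0.20, adjusted p = 7.44e-05). Meg3, a maternally expressed long noncoding RNA, fell from 27.99 to 32.9 to 0.192 to 3.61 CPM (-3.71, adjusted p = 0.00163), and Ndn, necdin, from 58.3 to 103 to 7.92 to 22.4 CPM (-2.42, adjusted p = 0.000592). Of the 8 GTPases of the immunity-associated (GIMAP) family, 4 were lower (50%, beside 13.1% of all genes) and none higher (beside 24.7%). Their median was -0.60, and 6 were lower with library totals. Gimap3 fell from 20.5 to 52.6 to 2.37 to 6.497 CPM (-3.18, adjusted p = 0.000381) and Gimap4 from 36.0 to 78.96 to 4.22 to 12.7 CPM (-2.93, adjusted p = 0.000552), while Gimap6, far better counted, measured 332 to 497 CPM and 262 to 349.9 CPM and was not called (edgeR adjusted p = 0.0775), though it passed under 10 of 15 other settings (DESeq2 adjusted p = 0.000957). These neighbouring genes resemble each other, so reads may be shared.

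Among adhesion and homing genes 11 of 37 were higher (29.7%, beside 24.7% of all genes) and 11 lower (29.7%, beside 13.1%). Their median was -0.13, and with library totals 8 were higher and 18 lower. The junctional molecules Jam2 and Jam3 fell from 22.9 to 32.4 to 2.94 to 5.88 CPM (-2.69, adjusted p = 5.81e-05) and from 35.5 to 53.2 to 4.12 to 10.03 CPM (-2.75, adjusted p = 0.000187). Cxcr4, the receptor for the marrow chemokine CXCL12, rose from 16.8 to 24.04 to 26.9 to 34.2 CPM (0.71, adjusted p = 0.00511), and Itgam, given above, rose by more. Itga1, an integrin of collagen, was 11.4-fold lower (-3.51, adjusted p = 0.000523) but not called against M-WT HSCs (-0.40, adjusted p = 0.45).

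Of 42 interferon-stimulated genes, 4 were higher (9.52%, beside 24.7% of all genes) and 11 lower (26.2%, beside 13.1%), with a median of -0.16. With library totals none was higher and 21 were lower, and with HSC replicates 1 and 4 left out none was higher and 3 were lower. Iigp1, an interferon-inducible GTPase, measured 248, 164, 187 and 216 CPM in HSCs and 75.5, 69.8, 73.2 and 84.4 CPM in MPP3s (log2 fold change -1.43, SE 0.13, adjusted p = 0.00011). Irf7 measured 42.05 to 48.2 CPM and 40.1 to 50.8 CPM and was not called (adjusted p = 0.95). Among MHC class II presentation genes 3 of 10 were higher (30%, beside 24.7% of all genes) and 3 lower (30%, beside 13.1%). Their median was -0.092, and with library totals 1 was higher and 4 were lower. H2-Ob, a chain of the peptide-loading inhibitor H2-O, measured 10.6, 20.4, 23.3 and 13.8 CPM in HSCs and 84.9, 106, 122 and 108 CPM in MPP3s (log2 fold change 2.63, SE 0.24, adjusted p = 9.88e-05). H2-Aa, a chain of the presenting molecule itself, went the other way, from 122 to 211 to 70.9 to 112 CPM (-0.85, adjusted p = 0.00977), and its partner H2-Ab1 was not called (adjusted p = 0.564).

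The gene the study altered, Zfp36, measured 76.2, 32.5, 35.2 and 54 CPM in Y-WT HSCs and 37.1, 21.3, 27.5 and 31.8 CPM in Y-WT MPP3s. The groups overlapped and it was not called (log2 fold change -0.75, SE 0.28, adjusted p = 0.0783), nor were its paralogs Zfp36l1 (-0.41, adjusted p = 0.137) and Zfp36l2 (0.065, adjusted p = 0.617) by edgeR. Zfp36 passed as lower under 12 of 15 other settings (DESeq2 -0.78, adjusted p = 0.0107) and Zfp36l1 under 6, among them DESeq2 and library totals. With HSC replicates 1 and 4, its higher HSC libraries, left out, Zfp36 stood at -0.20 (adjusted p = 0.508). Of 25 immediate early and TTP family genes, 2 were higher (8%, beside 24.7% of all genes) and 5 lower (20%, beside 13.1%). Their median was -0.37, and with library totals 2 were higher and 12 lower. Socs2, a brake on growth hormone signals, measured 69.6, 59.7, 45.8 and 44.6 CPM in HSCs and 11.1, 6.48, 4.38 and 5.66 CPM in MPP3s, with all MPP3 libraries far below (log2 fold change -2.99, SE 0.29, adjusted p = 0.000115). Dusp5, a phosphatase of ERK, and Btg2, an antiproliferative factor, rose (0.73 and 1.02, adjusted p = 0.00216 and 0.0136). Egr1, given above, Jun, Klf6 and Jund made up the other lower calls, and the last 3 lost theirs without MPP3 replicate 2 (adjusted p 0.0744 to 0.0952).

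**Figure D4:**
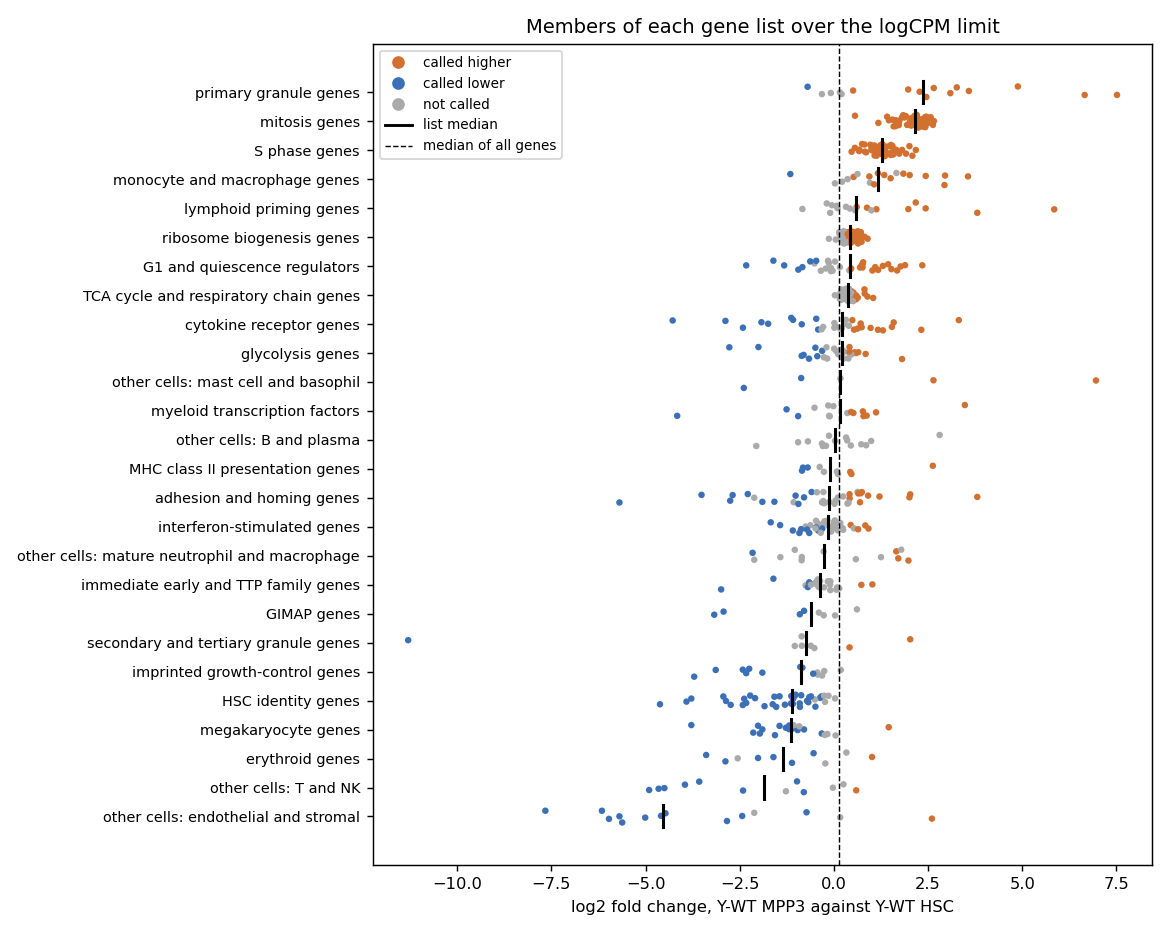
Log2 fold change of Y-WT MPP3 over Y-WT HSC (horizontal axis) for the genes of each list (vertical axis), each point 1 gene and each bar the list median, with the median of all genes as a line. Mitosis, S phase and primary granule medians lie to the right, at 2.15, 1.27 and 2.36, and the endothelial, T cell, erythroid, megakaryocyte and HSC identity medians to the left.

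The largest lower calls were not members of the list of HSC identity genes. The 12 genes with the largest fall that the naming rule takes were Lrg1, Ackr1, Aplnr, Rgs4, Nid1, Kdr, Mmrn2, Smtnl1, Adgrf5, Cavin2, Gpihbp1 and Ccn2, most of which are known from blood vessels. Lrg1, a secreted glycoprotein (chr17:56119678-56122001, minus strand), measured 139.9, 35.8, 29.99 and 144 CPM in HSCs and 0.068, 0.06, 0 and 0 CPM in MPP3s. Its log2 fold change of -11.30 (SE 0.96, adjusted p = 6.74e-05) rests on 4 counts in all MPP3 libraries against 11524 in HSCs. Kdr, the VEGF receptor 2 (chr5:75932827-75978458, minus strand), measured 104, 35.9, 34.3 and 131 CPM and 0.816, 0, 0.575 and 0.165 CPM (log2 fold change -7.66, SE 0.78, adjusted p = 0.000171). HSC replicates 1 and 4 were the high libraries in both, as in Ackr1, Aplnr, Rgs4, Nid1, Mmrn2, Adgrf5, Gpihbp1 and Ccn2, and none of these 10 genes was called by limma-voom. With HSC replicates 1 and 4 left out, Ccn2 (0.00222 to 0.0513) and Gpihbp1 (0.00299 to 0.0934) lost their adjusted p.

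The list of endothelial and stromal genes had 11 of 14 lower and 1 higher, with a median of -4.53, and with HSC replicates 1 and 4 left out 8 of 13 lower and 2 higher with a median of -3.485. Plvap, of fenestrated endothelium, measured 225, 49.3, 42.5 and 212 CPM in HSCs and 2.75, 1.92, 2.46 and 1.32 CPM in MPP3s (log2 fold change -5.97, SE 0.67, adjusted p = 0.000276). Fabp4, a fatty acid binding protein of capillaries, measured 337, 39.2, 41.4 and 283 CPM and 5.92, 1.68, 3.45 and 3.24 CPM (log2 fold change -5.62, SE 0.85, adjusted p = 0.00139). In both, HSC replicates 2 and 3 were also above every MPP3 library. Cdh5, VE-cadherin, which defines endothelium, measured 20.98, 5.92, 4.48 and 23.9 CPM and 0.85, 0, 0.256 and 0 CPM (log2 fold change -5.69, SE 1.06, adjusted p = 0.00401), and lost its call with HSC replicates 1 and 4 left out (-4.19, adjusted p = 0.105). Pdgfrb, a pericyte receptor, was the higher member, from 10.7 to 18.03 to 57.2 to 113 CPM (2.60, adjusted p = 1e-04).

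The summed CPM of the endothelial list was 586 to 1539 in Y-WT HSCs and 303 to 388 in Y-WT MPP3s (p = 0.0286 by a two-sided exact permutation test, which cannot go lower with 4 libraries a group, adjusted p = 0.157). In M-WT HSCs it was 541 to 612 and in Y-TTPdeltaARE HSCs 558 to 671, near Y-WT HSC replicates 2 and 3. Scaled to the library total alone, Kdr measured 98.0, 41.1, 37.5 and 145.7 CPM in Y-WT HSCs, 27.8 to 39.7 in M-WT HSCs and 27.0 to 38.05 in Y-TTPdeltaARE HSCs, and at most 0.715 in Y-WT MPP3s. Plvap measured 211, 56.5, 46.5 and 235.6 in Y-WT HSCs but 5.91 to 14.8 in M-WT HSCs. Slamf1, in the same unit, measured 59.7 to 68.0 in all 4 Y-WT HSC libraries, with no division between replicates 1 and 4 and the others. Of the 380 genes lower by more than 4-fold, 273 (71.8%) had HSC replicates 1 and 4 both above replicates 2 and 3. The share was 56.1% of all 1755 lower genes and 36.8% of all genes. Against M-WT HSCs, 104 of the 380 were not called lower, some of them only because they were under the level limit there. The part of endothelial cells in the lower calls was not tested.

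**Figure D5:**
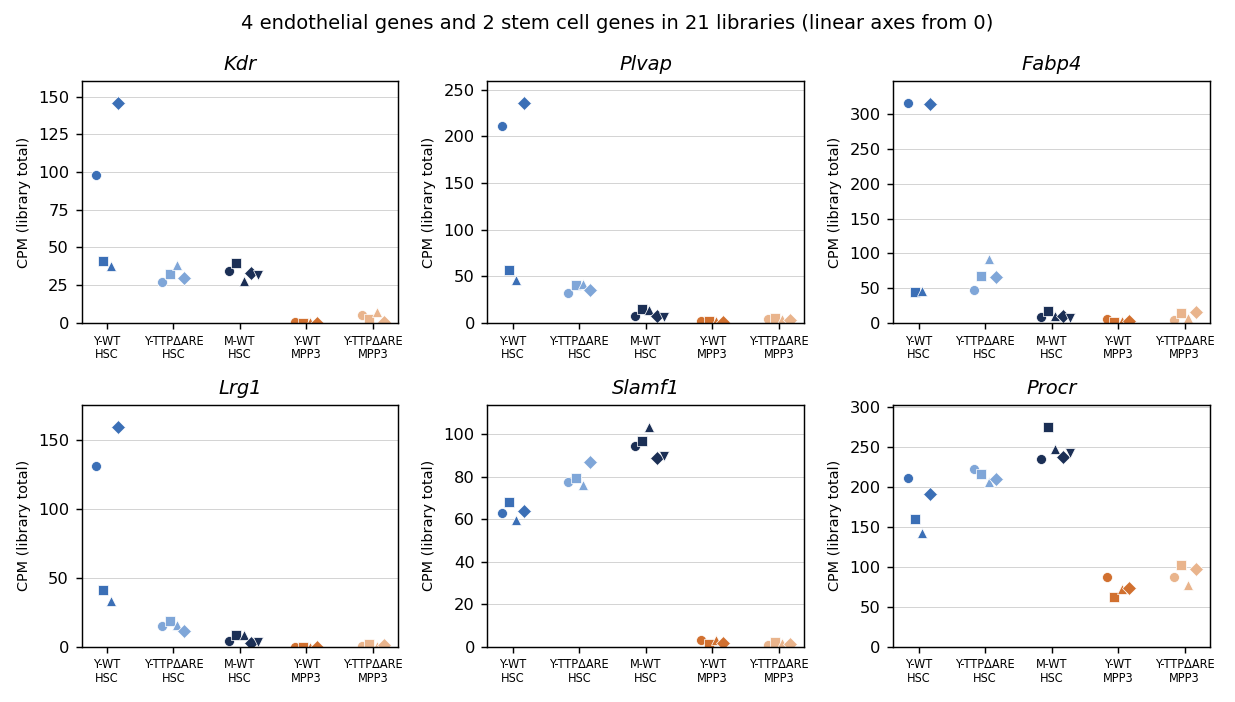
CPM of the library total (vertical axes, linear from 0) of Kdr, Plvap, Fabp4 and Lrg1 and of the stem cell markers Slamf1 and Procr in each library of the 5 groups (horizontal axis), each point 1 library and each marker shape 1 replicate number. Y-WT HSC replicates 1 and 4 stand above all other libraries for the first 4 genes, with 98.0 and 145.7 for Kdr. For Slamf1 they do not, and for Procr they stand at 210.4 and 190.4 against 159.1 and 142.4 in replicates 2 and 3.

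Lrg1, Kdr, Smtnl1 and Cavin2 were the members of the 12 that were called lower in all 3 comparisons. Ackr1 (-6.67, edgeR adjusted p = 9.72e-06), Adgrf5 (-4.52, adjusted p = 0.00041) and Ccn2 (-3.59, adjusted p = 0.00887) were also lower against M-WT HSCs. They were not called there only because they were under the level limit. For Smtnl1 and Cavin2 HSC replicates 2 and 3 were not far below replicates 1 and 4. Smtnl1, a smoothelin-like gene, measured 26.3, 14.8, 14.9 and 18.3 CPM in HSCs and 0.238, 0.03, 0.192 and 0.055 CPM in MPP3s (log2 fold change -7.18, SE 0.45, adjusted p = 1.89e-05). Cavin2, of the caveolar coat, measured 115, 47.3, 57.02 and 86.7 CPM and 1.09, 0.06, 0.351 and 1.04 CPM (log2 fold change -6.90, SE 0.58, adjusted p = 6.38e-05). Their log2 fold changes were -5.82 and -7.33 between Y-TTPdeltaARE MPP3s and HSCs, and -7.91 and -8.21 against M-WT HSCs.

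Of the 12 largest higher calls, 11 were Mpo, Ctsg, Dntt, BC035044, Elane, Slc16a11, Tespa1, Cd48, Bex6, Atp8b4 and Bpifc. BC035044 measured 2.28, 2.25, 2.75 and 1.46 CPM in HSCs and 56.1, 106, 88.6 and 69.2 CPM in MPP3s (log2 fold change 5.20, SE 0.26, adjusted p = 1.19e-05). Slc16a11, a monocarboxylate transporter family member, measured 1.65, 1.497, 1.96 and 2.59 CPM and 32.96, 39.04, 56.1 and 62.9 CPM (log2 fold change 4.63, SE 0.27, adjusted p = 1.48e-05). Both separated the groups by more than 10-fold at the nearest libraries. Tespa1, a T-cell receptor signaling adaptor, rose from 3.78 to 9.71 to 95.1 to 148 CPM (4.19, adjusted p = 3.43e-05), and Atp8b4, a lipid-transporting ATPase, from 1.33 to 3.99 to 16.02 to 68.6 CPM (3.83, adjusted p = 0.000548). These 11 were also called higher in Y-TTPdeltaARE MPP3s and against M-WT HSCs.

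Markers of other cells were set beside these. T and NK cell genes had 8 of 12 lower and 1 higher, with a median of -1.84. Only 6 were over the level limit with HSC replicates 1 and 4 left out, 2 of them lower and 1 higher, with a median of -0.17. Their summed CPM was 173 to 237 in HSCs and 108 to 124 in MPP3s (two-sided exact permutation p = 0.0286, adjusted p = 0.157). The defining genes were low: Cd3e measured 8.63, 2.69, 6.25 and 4.74 CPM in HSCs and 0.136, 0, 0.607 and 0 CPM in MPP3s (-4.90, adjusted p = 0.00905), and with HSC replicates 1 and 4 left out it was not called (adjusted p = 0.0899). Lck was the higher member (0.59, adjusted p = 0.0215) and was lost without MPP3 replicate 1 (0.54, adjusted p = 0.0562) and with library totals. None of 15 B and plasma cell genes was called by edgeR, DESeq2 or limma-voom and 1 had an unadjusted edgeR p under 0.05, although Igkc spread from 1796 to 18840 CPM in HSCs and from 1894 to 29210 CPM in MPP3s, with the highs in HSC replicate 3 and MPP3 replicate 1. Of 13 mature neutrophil and macrophage genes, the complement genes C1qa, C1qb and C1qc were higher (1.71, 1.66 and 1.98) and Mrc1 lower (-2.16), but C1qb was lost without HSC replicate 3 (adjusted p = 0.0502), C1qa without any of 6 libraries, and C1qc and Mrc1 without any of 5 (adjusted p 0.0552 to 0.0995). Mast cell and basophil genes split: Cpa3, carboxypeptidase A3, rose from 2.11 to 9.82 to 32.6 to 42.6 CPM (2.64, adjusted p = 0.000868), Mcpt8, a basophil protease, measured 0, 0.068, 0.113 and 0 CPM and 2.52, 5.19, 13.2 and 1.704 CPM (5 counts against 723, log2 fold change 6.96, SE 1.04, adjusted p = 0.00132; not called by limma-voom), and Il4 fell from 14.1 to 18.2 to 2.01 to 3.69 CPM (-2.39, adjusted p = 5.81e-05).

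The same contrast of cell types in mice of the other genotype used none of these 8 libraries, though its libraries belong to the same sets. Of 13358 genes, 1949 were higher in Y-TTPdeltaARE MPP3s than in Y-TTPdeltaARE HSCs (14.6%) and 1551 lower (11.6%). Of the 3314 genes higher in Y-WT MPP3s, 91.7% had the same sign and 1449 (43.7%) were called higher there, and of the 1755 lower, 96.1% had the same sign and 1127 (64.3%) were called lower. By size, 174 of the 180 genes higher by more than 4-fold were called higher there, against 266 of the 380 lower by more than 4-fold. The granule genes had larger log2 fold changes in that comparison, 9.53 for Mpo, 8.26 for Elane and 10.02 for Ctsg, and the division genes smaller ones, 1.95 for Mki67 and 1.69 for Cdk1. None of these 5 differences between genotypes passed the interaction test below (adjusted p 0.0998 to 0.874). All 61 mitosis genes, 49 of 51 S phase genes and 11 of 16 primary granule genes were higher, and 31 of 38 HSC identity genes lower.

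Against the 5 M-WT HSC libraries, which are of another age and another library set, 3411 of 13270 genes were higher in Y-WT MPP3s (25.7%) and 3245 lower (24.5%). That comparison uses the same 4 MPP3 libraries, so only the members' own values are set beside the main ones. Log2 fold changes were 9.82 for Mpo, 3.62 for Cebpa, 4.44 for Flt3, 3.17 for Mki67, -5.75 for Vwf and -1.63 for Procr. All 61 mitosis, all 51 S phase and 11 of 16 primary granule genes were higher, all 38 HSC identity genes were lower, and the endothelial list, with 8 lower and 2 higher, had a median of -2.18 in place of -4.53. In the Y-TTPdeltaARE comparison that median was -2.49.

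The difference between the genotypes' contrasts was tested as an interaction over all 16 young libraries. Of 26337 genes, 128 had an adjusted p under 0.05. The log2 fold change of MPP3 over HSC was higher in Y-TTPdeltaARE mice for 116 of them and lower for 12. Higher includes a smaller fall, as in Kdr (-7.66 in wild-type and -2.96 in Y-TTPdeltaARE mice by this fit). The 128 include genes described here. All 10 MHC class II presentation genes were higher in Y-TTPdeltaARE MPP3s than in their HSCs, where 3 of 10 were in wild-type mice, and Cd74 had log2 fold changes of 2.48 there and -0.38 in wild-type mice. Vwf was not among the 128 (adjusted p = 0.857).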

How the data were processed

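Sorted bone marrow cells were profiled by bulk poly(A) RNA-seq with paired reads (a SMARTer or SMART-seq kit, which the labels and the study's methods name differently). The authors trimmed reads (Trim Galore! with Cutadapt), aligned them to mm10 with STAR and GENCODE M22, and deposited raw counts per gene from featureCounts; the versions of STAR and featureCounts, strand and treatment of multimapping reads are not given in the sources used here. Of the values from 1 to 20 counts, 67.3% to 76.6% per library were even, as when both mates of a pair are counted, which no source states. Replicates of a group differed beyond sampling noise (chi-square per degree of freedom 28.8 to 198), so none was merged.

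From the counts of 55376 genes, edgeR 4.0.16 in R 4.3.3 was run with filterByExpr (minimum count 10, minimum total 15), TMM factors and the quasi-likelihood test, with Benjamini-Hochberg adjusted p under 0.05, fold change over 1.2 and average logCPM over 1.5, the limits of the study's methods. CPM are scaled by TMM factors unless a library total is named. The test was tried on simulated counts with known changes. Interactions used the same model over 16 libraries. Alternatives were RLE, upper quartile and no factors, no filter, no level limit, folds over 2 and 4, DESeq2 1.42.0, the likelihood ratio test, limma-voom (3.58.1), glmTreat, a replicate block, fits with more libraries, fits without receptor and segment genes, and each library left out; 3 fits without a pair of libraries were added after seeing the data. Gene positions are from GENCODE M21 (GRCm38), promoters from RefSeq (GRCm38.p6).

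Named genes were the sort gate genes, key genes of 27 lists, up to 3 further called genes per list by fold change, and the 12 largest higher and lower called genes with no overlap between groups and a mean of at least 10 CPM in the higher group (segment and receptor genes and unnamed models left out). Lyz2, Gstm1, Il1r1, Ly6c2, Ikzf1, Mycn, Hoxb5, Mllt3, Erg, Lyl1, Plek, Tfrc, Pdgfrb, Bmi1, Hoxb4, Lck, Fcgr2b, Csf2rb2, Ets1, C1qa, C1qc, Mrc1, Jun, Klf6 and Jund, and genes named without values, were chosen after their values were seen. Some genes that the rule takes are not reported here. The comparison and lists were chosen with earlier results of these data known.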

Additional observations from a re-analysis of the deposited data

Results flagged for a closer look

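The step from HSC to MPP3 differed between the genotypes for 128 of 26337 genes (adjusted p under 0.05), and 15 of these were among the genes named here. The value given is the log2 fold change of MPP3 over HSC in Y-TTPdeltaARE mice minus that in Y-WT mice. It was tested by edgeR's quasi-likelihood interaction term over 16 libraries. Antigen presentation genes formed the largest group of the 15, which depends on the genes chosen for naming. The difference was 3.25 for H2-Aa (adjusted p = 0.000319), 2.90 for H2-Ab1, 3.60 for H2-Eb1, 2.83 for Cd74 and 2.85 for Ciita, the transactivator of class II genes. H2-Aa, H2-Eb1 and Ciita were lower in Y-WT MPP3s than in Y-WT HSCs and higher in Y-TTPdeltaARE MPP3s than in Y-TTPdeltaARE HSCs. Genes of monocytes and dendritic cells differed as well, Irf8 by 2.96, Ccr2 by 2.42, Id2 by 2.94 and Fcgr2b by 3.22, and interferon-stimulated genes by 1.04 for Irf7 and 3.59 for Ifi204. Kdr differed by 4.69, Lrg1 by 7.43, Ackr1 by 6.52 and Gprc5c by 3.77, and for these 4 genes, as for Irf8, Id2, Fcgr2b and Ifi204, Y-WT HSC replicates 1 and 4 were both above replicates 2 and 3.

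Within groups of 4 libraries, 32 of 446 sets of values (7.17%) had 1 library whose gap to the nearest other exceeded 0.829 of the group's range, where chance gives about 1 in 20. Neutrophil granule genes were the clearest block. HSC replicate 4 stood apart for S100a8 (0.903 of the range), S100a9 (0.923), Ltf (0.962) and Camp (0.872), and MPP3 replicate 2 for the same genes (0.840, 0.915, 0.899 and 0.838). MPP3 replicate 1 stood apart for B and plasma cell genes, with 0.908 for Cd79a, 0.872 for Igkc, 0.834 for Jchain, 0.865 for the list's mean and 0.849 for the share of counts in the 10 most counted genes. It was also highest for Lyz2 (0.846), Gstm1 (0.871), Sult1a1 (0.916), Gpihbp1 (0.866), Phlda2 (0.891) and Jund (0.841) and lowest for Itgb3 (0.849).

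HSC replicate 1 had the fewest genes with a count, 27729 against at least 40051 (0.883), and was highest for Jam3 (0.919), Bmi1 (0.829), Cxcr4 (0.961) and Jun (0.934). HSC replicate 2 was highest for Elane (0.851), at 1.67 CPM, and lowest for H2-Oa (0.898). HSC replicate 4 was highest for Csf1r (0.847) and the erythroid list's mean (0.897). MPP3 replicate 2 was highest for Cycs (0.861) and Ndufa4 (0.887), and MPP3 replicate 3 for Ncf1 (0.874).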

How the results depend on the processing

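Of 170 named genes that were called, none changed sign under any alternative that refitted the genes; 42 lost an adjusted p under 0.05 with HSC replicates 1 and 4 left out, 27 with HSC replicates 2 and 3, 17 with MPP3 replicate 1 and HSC replicate 3, 24 against the 1.2-fold limit, 17 with library totals, 15 by limma-voom and none by DESeq2. Of 36 named genes over the level limit that did not pass, 16 passed under at least 1 alternative other than leaving out 1 library, 10 of them by DESeq2. In counts of called genes (3314 higher, 1755 lower), those that moved by more than 1.5 times were 2048 and 2950 with upper quartile factors, 1705 and 3262 with library totals, 639 and 907 at folds over 2, 180 and 380 at folds over 4, 1856 higher against the 1.2-fold limit (glmTreat), 792 lower with HSC replicates 1 and 4 left out and 1623 higher with HSC replicates 2 and 3 left out. Leaving out single libraries gave 2374 to 5091 higher (the latter without HSC replicate 1) and 1249 to 1815 lower, of which 3290 and 1368 were shared with the main calls without HSC replicate 1. For Y-TTPdeltaARE it gave 1193 to 2297 higher and 1063 to 1716 lower, and against M-WT HSCs 2975 to 3643 and 2973 to 3437.

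Of the list medians, library totals turned cytokine receptors to -0.0065, glycolysis to -0.013, myeloid factors to -0.043, B and plasma genes (0.032, -0.90 without MPP3 replicate 1) to -0.19 and mast cell genes (0.17) to -0.049 and moved sort gate genes to 0.997, megakaryocyte to -1.35, erythroid to -1.59, G1 to 0.22, ribosome biogenesis to 0.22, adhesion to -0.33, interferon to -0.38 and MHC class II to -0.32. Upper quartile factors turned myeloid factors to -0.0045, B and plasma genes to -0.14 and mast cell genes to -0.011, and gave 1.03 for sort gate, -1.30 for megakaryocyte, -0.34 for interferon and -0.28 for MHC class II genes. The shift of all genes is part of each of these values. All medians in this paragraph are over the members above the level limit in the main comparison. With HSC replicates 1 and 4 left out, secondary granule genes moved to 1.10, megakaryocyte to -0.94, T and NK to -1.36, endothelial to -3.53 and mature neutrophil and macrophage genes to 1.36. With HSC replicates 2 and 3 left out megakaryocyte moved to -1.25 and T and NK to -2.29, with MPP3 replicate 1 and HSC replicate 3 left out megakaryocyte to -1.34, and without segment and receptor genes megakaryocyte to -1.19 and T and NK to -1.04. Without single libraries the medians spanned -1.33 to -0.96 (megakaryocyte), -2.196 to 1.36 (secondary granule), -0.51 to 1.21 (mature neutrophil and macrophage) and -2.54 to -1.51 (T and NK). The cause was not tested.

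The replicate numbers of HSCs and MPP3s share no stated origin, and their deviations did not pair (correlations -0.036, 0.097, 0.234 and 0.052 for numbers 1 to 4; HSC replicates 1, 3 and 4 correlated best with another number). With the replicate block 3211 genes were higher and 1737 lower, 2049 and 1722 in Y-TTPdeltaARE mice and 3029 and 2931 against M-WT HSCs, the megakaryocyte median was -1.23, those of secondary granule and of mature neutrophil and macrophage genes turned from -0.73 to 0.35 and from -0.27 to 0.48, and of the named genes Rian and Fcgr2b lost their calls while Gimap6, Ifit1, Npm1 and Zfp36 passed. DESeq2 gave 3498 and 2337, limma-voom 4715 and 1899. The lists with no call in 1 direction kept it so by edgeR at an unadjusted p under 0.05, DESeq2 and limma-voom, but for Gimap genes (1 higher unadjusted and by limma-voom). Genes at few counts in 1 group (Lrg1, Ackr1, Aplnr, Mcpt8) have fold changes set by the prior count.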
